A study of Homo sapiens with 2 samples.

Results

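The genes described here are 49 genes of the G2 phase and of mitosis, among them the spindle checkpoint kinase TTK, the cyclin B genes, the Aurora kinases and the kinesins of the spindle. A gene was taken from the probe sets annotated to that gene alone, and where it had several, the brightest of them over both arrays stood for it. All 49 genes were found, with 96 probe sets, among 19775 genes named on the array, and 48 of them reached 5.03 on average over both arrays, the middle value of the whole array on the log2 scale (the median level from here on). RNA came from H2228 cells treated with IL4 and from H2228 cells without treatment, and 1 GeneChip U133 plus array was used for each condition. H2228 is an established human lung adenocarcinoma line with the EML4-ALK variant 3 fusion gene, which both conditions carry, and IL4 is a cytokine that signals through JAK kinases and STAT6. The series gives 100 ng/mL IL4 for 30 min, while a general protocol attached to both samples speaks of a transfection with EML4-ALK plasmids, siRNAs or controls for 48 h, and whether these cells were transfected is not given in the sources used here.

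With 1 array per condition, no test and no error between cultures could be given, and a difference between the cultures cannot be told apart from an effect of IL4. The deposited values are on the log2 scale. RMA, which subtracts background, sets the arrays on a common scale and condenses the probes of a probe set into 1 value, is given for them in the processing notes, while the study's methods give other software. Since these sources name different software, the method behind the values is uncertain. Exactly equal values on both arrays were found for 8.28% of all probe sets, and the median level of these was 3.66. Whether the method gave these ties was not tested. The difference given for a gene is its log2 value with IL4 minus its log2 value in untreated cells, and a gene was called lower or higher from 1.5-fold. The median difference over all genes was 0. Of 10 markers of lung epithelium and adenocarcinoma, 10 reached the median level, with values of 6.13 to 11.84 with IL4 and 6.29 to 11.80 in untreated cells and a median difference of 0.22. Of these, NKX2-1, a transcription factor of lung epithelium, was at 6.91 with IL4 and 7.88 in untreated cells (1.96-fold lower), and CDH1, which encodes E-cadherin, at 10.92 with IL4 and 10.18 in untreated cells (1.68-fold higher). Of the markers of fibroblasts, leukocytes and endothelium, 2 of 8, 2 of 6 and 2 of 6 reached that level, with median differences of 0.08, 0.06 and 0.20. The fibroblast marker COL3A1, a collagen gene, was the 1 gene of these 3 lists past 1.5-fold, at 4.45 with IL4 and 3.67 in untreated cells, below the median level on both arrays. COL1A1, another collagen gene on the fibroblast list, was within 1.5-fold but high, at 11.23 with IL4 and 10.82 in untreated cells. The 3' minus 5' value of the ACTB control probe sets was 1.43 with IL4 and 1.73 in untreated cells, and that of GAPDH was 0.14 with IL4 and 0.16 in untreated cells. The part of these markers and controls in the differences below was not tested.

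Cells enter mitosis when cyclin B binds CDK1 and the phosphatases of the CDC25 family remove the inhibitory phosphates that WEE1 places on it. Kinetochores, built on centromeres, then capture spindle microtubules, and the spindle checkpoint holds back the anaphase-promoting complex, a ubiquitin ligase started by CDC20, until every chromosome is attached. Most of these genes are transcribed late in the cell cycle, from promoters that often hold CCAAT boxes bound by NF-Y and a cell cycle genes homology region (CHR), through which the MuvB core binds with the DREAM repressor or with the activators B-MYB and FOXM1.

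Transcripts of mitosis and spindle genes were lower with IL4 across nearly all parts of the mitotic machinery. Of the 49 genes, 39 were at least 1.5-fold lower, against 4.39% of all 19775 genes, and 0 were at least 1.5-fold higher, against 3.21% of all genes. The value was lower by any amount in 47 genes and higher in 1, where 48.1% of all genes were lower and 45.5% higher by any amount. The exceptions were INCENP, the inner centromere scaffold of the chromosomal passenger complex, which was slightly higher, and UBE2C, which had the same value on both arrays. The median log2 difference of the 49 genes was -0.80. At 2-fold, 15 of them were lower and 0 were higher, against 0.89% and 1.11% of all genes. At a weaker level of 0.32 on the log2 scale, 46 were lower and 0 were higher, against 13.3% and 10.1% of all genes. The lowest was NDC80 at -1.52, and 22 of all genes on the array had a lower difference. The median level was reached by 12949 of all genes, 48 of them mitosis and spindle genes. The 100 largest decreases among these 12949 genes included 10 mitosis and spindle genes. In a bulk culture, fewer cells in G2 and mitosis and less of these transcripts per cell cannot be told apart.

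The promoters of these genes share more than their function, and 4 of them are shown here because they belong to the ends of the range. NDC80 and KIF11 had the largest decreases among the genes with a promoter entry, and INCENP and AURKB the smallest differences of those that reached the median level. The sequences are those of RefSeq for GRCh38.p14 and cover the 250 bases before the start of the gene, 5′ to 3′ on the strand of the gene, with matches to TTTGAA (the CHR element), TTTAAA (a CHR variant) or CCAAT on either strand in capitals. They lie at chr18:2571307-2571556 (plus strand) for NDC80, chr10:92592880-92593129 (plus strand) for KIF11, chr11:62123761-62124010 (plus strand) for INCENP and chr17:8210226-8210475 (minus strand) for AURKB.
NDC80: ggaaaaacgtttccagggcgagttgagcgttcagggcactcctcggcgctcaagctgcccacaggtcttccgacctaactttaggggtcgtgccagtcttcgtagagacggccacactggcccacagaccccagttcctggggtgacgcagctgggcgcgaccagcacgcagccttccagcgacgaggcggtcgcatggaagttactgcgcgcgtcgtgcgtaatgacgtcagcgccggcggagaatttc
KIF11: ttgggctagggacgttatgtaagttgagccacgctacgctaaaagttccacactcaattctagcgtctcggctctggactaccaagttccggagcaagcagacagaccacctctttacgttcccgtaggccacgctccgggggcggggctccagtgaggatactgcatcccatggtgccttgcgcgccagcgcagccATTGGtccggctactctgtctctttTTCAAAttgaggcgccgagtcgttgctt
INCENP: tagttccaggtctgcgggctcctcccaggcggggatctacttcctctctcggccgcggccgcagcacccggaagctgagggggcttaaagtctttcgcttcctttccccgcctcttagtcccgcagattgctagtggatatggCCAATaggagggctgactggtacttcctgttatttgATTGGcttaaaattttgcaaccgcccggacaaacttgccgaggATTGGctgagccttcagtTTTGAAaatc
AURKB: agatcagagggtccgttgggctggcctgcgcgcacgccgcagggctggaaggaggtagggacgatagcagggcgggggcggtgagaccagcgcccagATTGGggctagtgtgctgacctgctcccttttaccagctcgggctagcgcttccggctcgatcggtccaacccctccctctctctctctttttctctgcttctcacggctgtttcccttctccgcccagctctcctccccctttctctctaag
The NDC80 window held none of the 3 motifs, although NDC80 had the largest decrease. The KIF11 window held TTTGAA on the opposite strand from position -28, counted from the start, and CCAAT on the opposite strand from -53. INCENP, with nearly equal values on both arrays, held TTTGAA from -10 and 3 CCAAT matches, and AURKB held 1 CCAAT match from -153. Among these 4 windows, matches were found at both ends of the range of differences.

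Over all genes with an entry the motifs were frequent. Of the 49 genes, 40 had at least 1 promoter entry, 51 entries in all, and TTK, BUB3, WEE1, FOXM1, AURKA, BIRC5, TPX2, UBE2C and RACGAP1 had none. TTTGAA was found in 51% of the 51 entries, against 13.3% of all 35116 promoter entries of the table. TTTAAA was found in 29.4% against 11.3%, and CCAAT in 76.5% against 32%. TTTGAA and CCAAT together were found in 45.1% against 4.69%. Of 133 matches, 2 pairs of different motifs shared a base. In the first entry of each gene, 20 of 28 TTTGAA matches and 47 of 65 CCAAT matches began within 100 bases of the start. Within the group, the 24 genes with TTTGAA in any entry had a median difference of -0.80 and the 16 without it had -0.98, and 21 of the 24 and 14 of the 16 were at least 1.5-fold lower. A match describes letters only and says nothing of binding in these cells.

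All 5 spindle checkpoint genes were lower, BUB3 by less than 1.5-fold and the other 4 by more. TTK, also called MPS1, the kinase that starts checkpoint signalling at unattached kinetochores, was at 7.86 with IL4 and 9.26 in untreated cells, which is 2.63-fold lower. MAD2L1, which encodes the MAD2 protein that captures CDC20, was at 9.85 with IL4 and 10.90 in untreated cells (2.08-fold lower). Both of them were past 2-fold. BUB1B, which encodes BUBR1, another subunit of the mitotic checkpoint complex, was at 9.38 with IL4 and 10.39 in untreated cells (2.02-fold lower), and the kinase gene BUB1 at 8.56 with IL4 and 9.56 in untreated cells (just short of 2-fold lower). BUB3, the adaptor that recruits both BUB proteins to kinetochores, was at 10.87 with IL4 and 11.14 in untreated cells, a difference of -0.27. Over the group of 5 genes, 4 were at least 1.5-fold lower and the median difference was -1.02.

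Of the 9 genes of the cyclin-CDK engine, 7 were at least 1.5-fold lower, with a median of -0.76. CDC25C, a phosphatase that activates CDK1, was at 6.96 with IL4 and 8.27 in untreated cells (2.49-fold lower). CCNA2, which encodes cyclin A2 of S phase and G2, was at 8.98 with IL4 and 10.01 in untreated cells (2.04-fold lower). These were the 2 genes of the group past 2-fold. CDC25B, the CDC25 phosphatase thought to start CDK1 activation at the centrosome, was at 9.66 with IL4 and 10.63 in untreated cells. The genes of both B-type cyclins were lower, CCNB2 at 10.02 with IL4 and 10.92 in untreated cells (1.87-fold lower) and CCNB1 at 11.05 with IL4 and 11.79 in untreated cells (1.67-fold lower). CDK1, their catalytic partner, was at 10.44 with IL4 and 11.20 in untreated cells (1.69-fold lower). CKS2, a small subunit that docks CDK1 to its substrates, was the gene just inside the 1.5-fold level, at 10.79 with IL4 and 11.38 in untreated cells (1.51-fold lower). The other 2 genes did not reach it. FOXM1, the transcription factor of G2 and mitotic genes, was at 8.18 with IL4 and 8.67 in untreated cells, and WEE1, the kinase that opposes the CDC25 phosphatases, was at 9.12 with IL4 and 9.46 in untreated cells, the smallest difference of this group at -0.34.

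Among the mitotic kinases, NEK2, which acts in centrosome separation, was at 9.29 with IL4 and 10.51 in untreated cells (2.32-fold lower). AURKA, the Aurora kinase of the spindle poles, was at 9.62 with IL4 and 10.65 in untreated cells (2.04-fold lower). PLK1, the Polo kinase that acts from mitotic entry to cytokinesis, was at 6.39 with IL4 and 7.24 in untreated cells (1.80-fold lower). The 4 subunits of the chromosomal passenger complex, which corrects wrong attachments at the centromere and acts at the midzone in anaphase, were not lower to the same degree. BIRC5, which encodes survivin, was at 9.23 with IL4 and 9.95 in untreated cells (1.65-fold lower). CDCA8, which encodes borealin, was at 8.46 with IL4 and 9.10 in untreated cells (1.56-fold lower). AURKB, the kinase of the complex, was at 6.72 with IL4 and 7.12 in untreated cells, less than 1.5-fold apart. Its scaffold INCENP was at 6.25 with IL4 and 6.18 in untreated cells, a difference of 0.07. Survivin and borealin transcripts were thus past 1.5-fold, and those of the kinase and the scaffold were not. This split is one of threshold, since CDCA8 was at -0.57 after the loess correction given below. INCENP had 1 probe set, and the values of AURKB and INCENP lay below those of BIRC5 and CDCA8.

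All 5 genes of the centromere and kinetochore were at least 1.5-fold lower. NDC80, which gives its name to the complex that binds microtubules at the outer kinetochore, was at 7.66 with IL4 and 9.18 in untreated cells (2.87-fold lower). Its partner in that complex, NUF2, was at 7.96 with IL4 and 9.18 in untreated cells (2.34-fold lower). The other 3 genes lay closer together. CENPA, the histone H3 variant that marks the centromere, was at 7.35 with IL4 and 8.08 in untreated cells (1.66-fold lower). CENPF, a large protein of the outer kinetochore, was at 8.97 with IL4 and 9.69 in untreated cells (1.65-fold lower). CENPE, a kinesin that carries chromosomes towards the spindle equator, was at 8.12 with IL4 and 8.78 in untreated cells (1.58-fold lower).

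Of 7 spindle motor genes, 6 were at least 1.5-fold lower, with a median of -1.06. KIF11, which encodes Eg5, the kinesin that pushes the spindle poles apart, was at 7.67 with IL4 and 9.10 in untreated cells (2.69-fold lower). KIF20A, a kinesin of the central spindle and cytokinesis, was at 8.98 with IL4 and 10.29 in untreated cells (2.48-fold lower). KIF18A, which dampens chromosome oscillation at the metaphase plate, was at 6.997 with IL4 and 8.12 in untreated cells (2.17-fold lower), and KIF14, a kinesin of cytokinesis, at 7.95 with IL4 and 9.00 in untreated cells (2.08-fold lower). These 4 kinesins were past 2-fold. KIF2C, which encodes the microtubule depolymerase MCAK, was at 8.76 with IL4 and 9.55 in untreated cells (1.74-fold lower), and the chromokinesin KIF4A at 8.85 with IL4 and 9.49 in untreated cells (1.56-fold lower). KIF23, which encodes the MKLP1 subunit of centralspindlin, was at 8.57 with IL4 and 9.10 in untreated cells, less than 1.5-fold apart.

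Of 6 genes of spindle assembly and microtubule binding, 5 were at least 1.5-fold lower. HMMR, which binds hyaluronan and, inside the cell, the microtubules of the spindle poles, was at 10.11 with IL4 and 11.45 in untreated cells (2.54-fold lower), and DLGAP5, which encodes HURP, a stabilizer of kinetochore fibres, at 8.88 with IL4 and 10.22 in untreated cells (2.54-fold lower). They were the pair past 2-fold in this group. ASPM, a protein of the spindle poles known from microcephaly, was at 9.73 with IL4 and 10.71 in untreated cells (1.97-fold lower). NUSAP1, which bundles microtubules near chromatin, was at 9.44 with IL4 and 10.35 in untreated cells (1.88-fold lower). TPX2, the activator of Aurora A, was at 10.24 with IL4 and 11.03 in untreated cells (1.73-fold lower), a smaller difference than that of AURKA itself. PRC1, which crosslinks the antiparallel microtubules of the midzone, was at 9.95 with IL4 and 10.46 in untreated cells, less than 1.5-fold apart.

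The genes of the anaphase-promoting complex pathway and of chromatid separation had the smallest median of the groups by role, -0.64, and 3 of 5 were at least 1.5-fold lower. ESPL1, which encodes separase, the protease that cuts cohesin, was at 7.64 with IL4 and 8.41 in untreated cells (1.71-fold lower). FBXO5, which encodes EMI1, an inhibitor of the complex, was at 8.51 with IL4 and 9.28 in untreated cells (1.70-fold lower), and its coactivator CDC20 at 9.60 with IL4 and 10.24 in untreated cells (1.56-fold lower). PTTG1, which encodes securin, the inhibitor of separase, was at 11.59 with IL4 and 12.08 in untreated cells, a difference of -0.49. UBE2C, the ubiquitin-conjugating enzyme of the complex, was at 4.98 on both arrays, below the median level. It is one of the exactly equal values named above, so the tie of UBE2C gives no measure of its transcript. With a floor at the median level, which leaves UBE2C out, the median of this group was -0.71. That is close to the -0.72 of the mitotic kinases and passenger complex and the -0.73 of the centromere and kinetochore genes.

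Among the 3 cytokinesis genes, ECT2, the exchange factor that activates RhoA at the cleavage furrow, was at 9.99 with IL4 and 10.85 in untreated cells (1.81-fold lower). ANLN, which encodes anillin of the contractile ring, was at 11.06 with IL4 and 11.90 in untreated cells (1.79-fold lower). RACGAP1, the partner of KIF23 in centralspindlin, was the gene just outside the 1.5-fold level, at 10.31 with IL4 and 10.88 in untreated cells (1.48-fold lower). Both genes of centralspindlin thus lay just short of 1.5-fold. TOP2A, the topoisomerase that disentangles sister chromatids, was at 11.09 with IL4 and 11.99 in untreated cells (1.87-fold lower), and MKI67, which encodes the proliferation antigen Ki-67 of the chromosome surface, at 8.50 with IL4 and 9.21 in untreated cells (1.64-fold lower).

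The decrease was present at every level of expression at which several of the genes lay. Between 6 and 8 on the log2 scale, 4 of 6 mitosis and spindle genes were at least 1.5-fold lower, against 7.50% of the 5051 other genes with a mean in that range. Between 8 and 10, 22 of 25 were lower, against 5.74% of 3449 other genes, and from 10 upwards 13 of 17, against 1.98% of 1316 other genes. The medians of the mitosis and spindle genes in these 3 ranges were -0.79, -0.80 and -0.84, and those of the other genes -0.02, -0.06 and -0.07. The remaining gene, UBE2C, lay below 6.

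**Figure D1:**
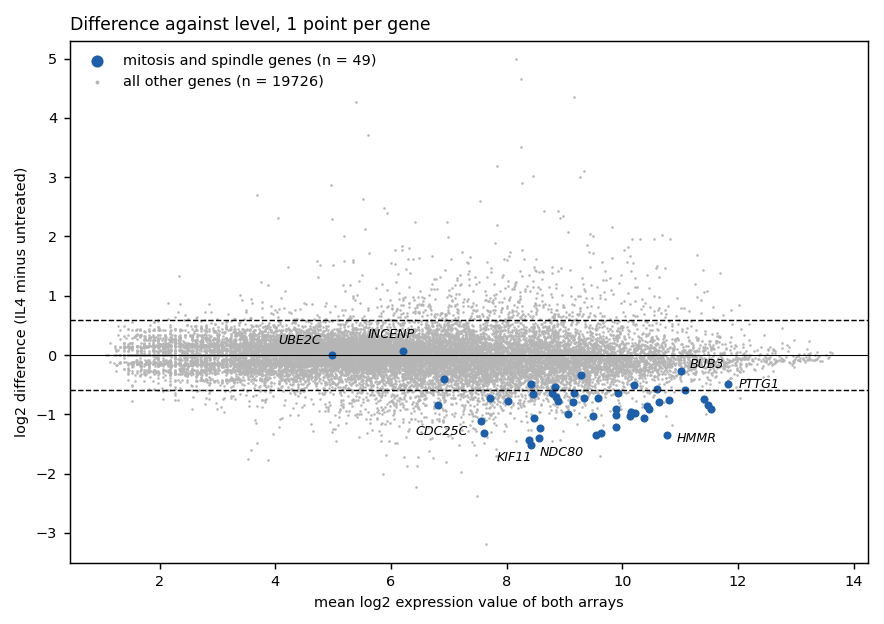
Log2 difference of IL4 minus untreated (y axis) against the mean log2 value of both arrays (x axis), 1 point per gene, for the 49 mitosis and spindle genes (blue) and all other genes (grey). Dashed lines mark 1.5-fold; 39 blue points lie below the lower line and none above the upper, from NDC80 at -1.52 to INCENP at 0.07.

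Other probe sets of the same genes measured the same RNA with other probes. Of the 49 genes, 26 had more than 1 probe set and 23 had a single one. Of 40 further probe sets at or above the median level, from 25 genes, 39 were lower and 28 were at least 1.5-fold lower, with a median of -0.80. The 4 probe sets of CDK1 differed by -0.76, -0.76, -0.81 and -0.85, both of HMMR by -1.34, and the 3 of MAD2L1 by -1.06, -1.05 and -0.999. Other genes had probe sets that disagreed. For CCNB2, the further probe sets had differences of 0.14 and 0.42, the first at 5.80 with IL4 and 5.65 in untreated cells and the second below the median level. For BUB1, 1 further probe set had -0.91 and the other 3, at 5.37 or less with IL4, had -0.14 to 0. For CDC25C, the next probe set had -1.34, like the one that stood for the gene, while the third, at 5.18 with IL4 and 5.28 in untreated cells, had -0.11. The difference between a further probe set and the one standing for the gene had a standard deviation of 0.30 over these 40 pairs, and of 0.25 between the 2 highest probe sets of 6056 genes of the array, which measures probe sets within the same arrays and not cultures.

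Further cell cycle genes were compared to place the mitotic genes within the cycle. Of all genes, 4.39% were at least 1.5-fold lower and 3.21% at least 1.5-fold higher. Of 58 other genes of kinetochores, centromeres and the spindle, 30 were at least 1.5-fold lower and 0 higher, with a median of -0.60. They included KIF15, a kinesin that works beside KIF11, at 5.997 with IL4 and 7.40 in untreated cells, OIP5, a factor of CENPA loading, at 7.74 with IL4 and 9.01 in untreated cells, and SPC24, a subunit of the NDC80 complex, at 7.21 with IL4 and 8.36 in untreated cells. Of 20 condensin and cohesin genes, 9 were lower and 0 higher, with a median of -0.47, led by the condensin genes NCAPG, at 8.47 with IL4 and 9.43 in untreated cells, and NCAPD2, at 8.11 with IL4 and 9.06 in untreated cells. Of 15 subunits of the anaphase-promoting complex and its cofactors, 0 were lower or higher by 1.5-fold, and their median was -0.27. With 15 genes, a count of 0 does not set this list apart from the shares of all genes. By any amount, 14 of the 15 were lower. At 0.32 on the log2 scale 5 were lower, against 13.3% of all genes, and 0 were higher, against 10.1%.

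Of 51 genes of DNA replication and S phase, 15 were at least 1.5-fold lower and 0 higher, with a median of -0.41, less than that of the mitosis and spindle genes. ORC1, the largest subunit of the origin recognition complex, had values of 5.31 with IL4 and 6.47 in untreated cells. It was the 1 gene of this list past 2-fold, whereas 15 of the 49 mitosis and spindle genes were. The genes of G1 did not move one way. Of 22 genes of G1 cyclins, E2F and RB proteins, 3 were lower and 3 higher, with a median of 0.01, against 4.39% lower and 3.21% higher of all genes. Among the 17 of them that reached the 75th percentile of all probe sets, 1 was lower and 3 were higher. RBL1 was lower at 5.40 with IL4 and 6.32 in untreated cells. RB1 was lower at 3.87 with IL4 and 4.75 in untreated cells, below the median level on both arrays. E2F8, a repressor of the E2F family, was at 6.68 with IL4 and 8.19 in untreated cells (2.86-fold lower), while its relative E2F7 was at 9.96 with IL4 and 8.66 in untreated cells (2.47-fold higher). Of 7 genes of the DREAM and MuvB complexes and of B-MYB, 2 were lower and 0 higher. The MuvB genes LIN9 and LIN52 were the lower ones. LIN9 was at 6.08 with IL4 and 6.78 in untreated cells (1.62-fold lower). LIN52 was at 7.30 with IL4 and 7.92 in untreated cells (1.54-fold lower). In some of the alternative settings only 1 or 0 genes of this list were lower. Of 7 genes named as CDK inhibitors (CDKN genes), 3 were lower and 1 higher. Their median was 0.09 but between -0.44 and -0.06 in 5 of the alternative settings. CDKN1A, which encodes p21, was at 9.67 with IL4 and 8.20 in untreated cells (2.78-fold higher). CDKN1B, which encodes p27, was at 8.95 with IL4 and 10.02 in untreated cells (2.09-fold lower). Also lower was CDKN3, at 9.93 with IL4 and 10.75 in untreated cells. So was CDKN2D, at 4.66 with IL4, under the median level, and 5.57 in untreated cells.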

How the data were processed

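Biotinylated cRNA of H2228 cells with IL4 and without treatment was hybridized to 1 Affymetrix array each. The deposited values are log2 expression values per probe set. They were made with RMA (version not given) according to the submitters' processing notes. The study's methods name the GeneChip Operating Software for the raw data, which leaves the method uncertain. Scanner files were not used here, so neither background correction nor normalization was repeated.

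Of 54675 probe sets, 41097 carried 1 gene symbol, and 41043 of these were brought to the current symbol through the RefSeq table of GRCh38.p14. The highest probe set stood for a gene. The 1 probe set naming a listed gene together with another gene was left out. Genes were called at 1.5-fold, the level of the study's results, with 2-fold, that of its methods, as an alternative and with no test, since there is 1 array per condition. The genes and lists were chosen with earlier results of these data known. Both values are given for every mitosis and spindle gene, for the marker COL1A1, and for a few genes of the other lists, at most 3 per direction past 1.5-fold. Of the genes on the lists, 7 were not analysed here. Promoter windows were shown for the 2 largest decreases and the 2 smallest differences with an entry. The counting was tested on simulated data. Python 3.11.15, numpy 2.4.6, pandas 2.3.3, statsmodels 0.14.6 and matplotlib 3.10.9 were used.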

Additional observations from a re-analysis of the deposited data

How the results depend on the processing

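The number of arrays limits the precision, no array could be left out, and the depth of an array is not counted. No paired analysis was possible because each condition has 1 array. At 2-fold in place of 1.5-fold, 15 of the 49 genes were lower, and at 0.32 on the log2 scale 46 were. Under the other alternatives the count of lower genes lay between 27 and 39, or between 71.4% (35 of 49, loess) and 83.0% (39 of 47, floor at the 75th percentile) of the genes with a value, the count of higher genes was 0 and the median lay between -0.73 and -0.91. The 27 of 35 came without probe sets ending in _s_at, _x_at or _a_at, which left 14 genes with no value. There CDC25C was at -0.11, CENPF at -0.48 and KIF23 at -0.09. Averaged over all probe sets, BUB1 was at -0.43, CCNB2 at -0.11 and CDC25C at -0.92. The median over probe sets at or above the median level gave -0.38 for CCNB2, and FBXO5 was at -0.48 without _x_at probe sets. With a loess correction (fraction 0.3), CKS2, CDCA8, KIF4A and CDC20 were no longer 1.5-fold lower, and with quantile normalization CKS2 was not. The counts of the further lists fell at 2-fold to 9 for other kinetochore and spindle genes, 0 for condensin and cohesin and 1 for DNA replication, and CDKN1A had no value without _s_at, _x_at and _a_at probe sets. Under 3 alternatives 1 subunit of the anaphase-promoting complex was lower, against 0 otherwise at 1.5-fold. In the DREAM and MuvB list 1 gene was lower with the loess correction, the mean over probe sets or the floor at the 75th percentile. The count there was also 1 without _x_at probe sets and without _s_at, _x_at and _a_at probe sets, and 0 at 2-fold. The median of the CDK inhibitors was 0.09 but -0.37 and -0.36 with floors at the median and at the 75th percentile, -0.44 with the median and -0.07 with the mean over probe sets, and -0.06 without _x_at probe sets. Without _s_at, _x_at and _a_at probe sets the median of the spindle motors was -0.93.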

Other observations

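The promoter motifs were also looked up in genes on none of the cell cycle lists. Of 779 such genes with both TTTGAA and CCAAT in the 250 bases before the start, 59 (7.57%) were at least 1.5-fold lower with IL4 and 27 (3.47%) were higher, against 571 lower (3.96%) and 461 higher (3.2%) of the 14412 such genes without both. With TTTGAA alone as the criterion, 6.32% of 2089 genes were lower, against 3.8% of 13102 without it, and with CCAAT 5.12% of 5993 genes were lower, against 3.51% of 9198. With TTTAAA, 5.45% of 1761 genes were lower and 4.26% higher, against 3.98% lower and 3.08% higher of 13430 without it. The median differences of genes with and without both TTTGAA and CCAAT were -0.02 and 0. The genes with and without a motif were not matched by level. The cell cycle lists used here do not hold every gene of the cell cycle, so such genes can remain among those counted. These values are a description of the 2 arrays, and the lookup was chosen after the values of the mitosis and spindle genes were seen.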
